A study of Mus musculus with 9 samples.

Results

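The genes of the early neuronal cytoskeleton followed here in E13.5 mouse cortex were Dcx, Tubb3, Stmn2, Map2, Mapt, Nefl, Nefm, Gap43, Map1b and Crmp1. These 10 genes, of 35498 genes in the quantification, were chosen by name with earlier results of these data known. All 10 were measured in every library and passed the filter on low counts. Expression was measured by stranded mRNA sequencing of whole cortical tissue from C57Bl/6 mice in 3 groups of 3 libraries. WT animals were Smarca1 +/+ without Cre. The Smarca1 KO animals were Smarca1 -/-, also without Cre. The DKO animals were Smarca1 -/- and carried 1 Cre allele, and the study describes them as lacking Smarca5 as well, so the Smarca1 deletion is shared by both mutant groups and the Cre allele by no group other than the DKO. The labels name neither the Cre driver nor the deleted exons, and give no Smarca5 genotype for the WT and Smarca1 KO groups. They also do not say whether replicates came from different animals, and a p-value here covers no more than the spread of these libraries, which may be technical.

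Neurons leaving the cell cycle build a cytoskeleton that their progenitors lack. Microtubules assembled from neuronal tubulins are bound by stabilising proteins that sort into axons and dendrites, growth cones at the tips of neurites carry their own membrane and signalling proteins, and neurofilaments follow as axons mature. Smarca5 and Smarca1 encode ISWI ATPases, the motors of chromatin remodellers that space nucleosomes.

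The libraries held 27466046 to 46007527 estimated reads assigned to genes, and single members had between 630 reads (Nefl) and 104582 reads (Map1b) in a library. Smarca5 was 84.4, 79.2 and 77.2 CPM (the read count scaled to library size with TMM factors) in the DKO, against 246, 243 and 212 CPM in the Smarca1 KO and 267, 271 and 262 CPM in the WT. It was therefore low, though not absent, in all 3 libraries of the DKO, which the study describes as lacking Smarca5 (a fold of 0.30 against the WT). Smarca1 was between 35.3 and 43.8 CPM in all 9 libraries, so its read count gave no check of the Smarca1 label. Genes of the dorsal cortex were expressed, with WT means of 324 CPM for Tbr1, a factor of early projection neurons, and 244 CPM for Eomes, a factor of intermediate progenitors.

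Per length of transcript, the 10 genes spanned a wide range in the WT cortex. Tubb3, the neuronal beta-tubulin, was the highest at 1187 ± 25.2 TPM (the deposited length-corrected abundance; mean ± SD, n = 3). Below it came Crmp1 at 522 ± 17 TPM, Map2 at 412 ± 10.9 TPM, Map1b at 355 ± 19.1 TPM and Stmn2 at 276 ± 6.42 TPM. Dcx and Gap43 followed at 232 ± 13.7 and 222 ± 13.6 TPM, and their libraries overlapped, so these neighbours did not differ beyond their spread. Mapt was lower at 188 ± 11.3 TPM. The neurofilament genes were far below the rest, Nefm at 37 ± 2.56 TPM and Nefl at 14.1 ± 1.41 TPM, members known from maturing axons. In the DKO the order of 2 pairs was turned: Gap43 had a mean of 316 ± 23.2 TPM against 278 ± 24.5 TPM for Dcx, and Stmn2 of 370.4 ± 27.1 TPM against 357 ± 19.2 TPM for Map1b, and in both pairs the DKO libraries overlapped.

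Across the DKO and the WT, 2 of the 10 genes were called at an adjusted p under 0.05 (edgeR's quasi-likelihood test, Benjamini-Hochberg over 15773 genes), and both rose: Stmn2 and Gap43. The rate over all genes tested was 12% called, 5.61% higher and 6.35% lower. A count of 2 among 10 genes is too small to set apart from these rates. Fold changes were positive for 10 of 10 genes, with a median log2 fold change of 0.24 beside 0.01 over all genes, of which 51.7% were positive. The members were chosen with earlier results of these data known, and they tended to move together from library to library. Their agreeing signs, here and in the other comparisons, are therefore a description and not independent support. The lowest DKO library was above the highest WT library for 6 genes (Dcx, Tubb3, Stmn2, Mapt, Nefl and Gap43), a separation in either direction that 41.3% of all genes also showed. The same 6 genes had an unadjusted p under 0.05, against 31% of all genes. In tissue libraries a larger share of neurons and more of these transcripts per neuron cannot be told apart.

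**Figure D1:**
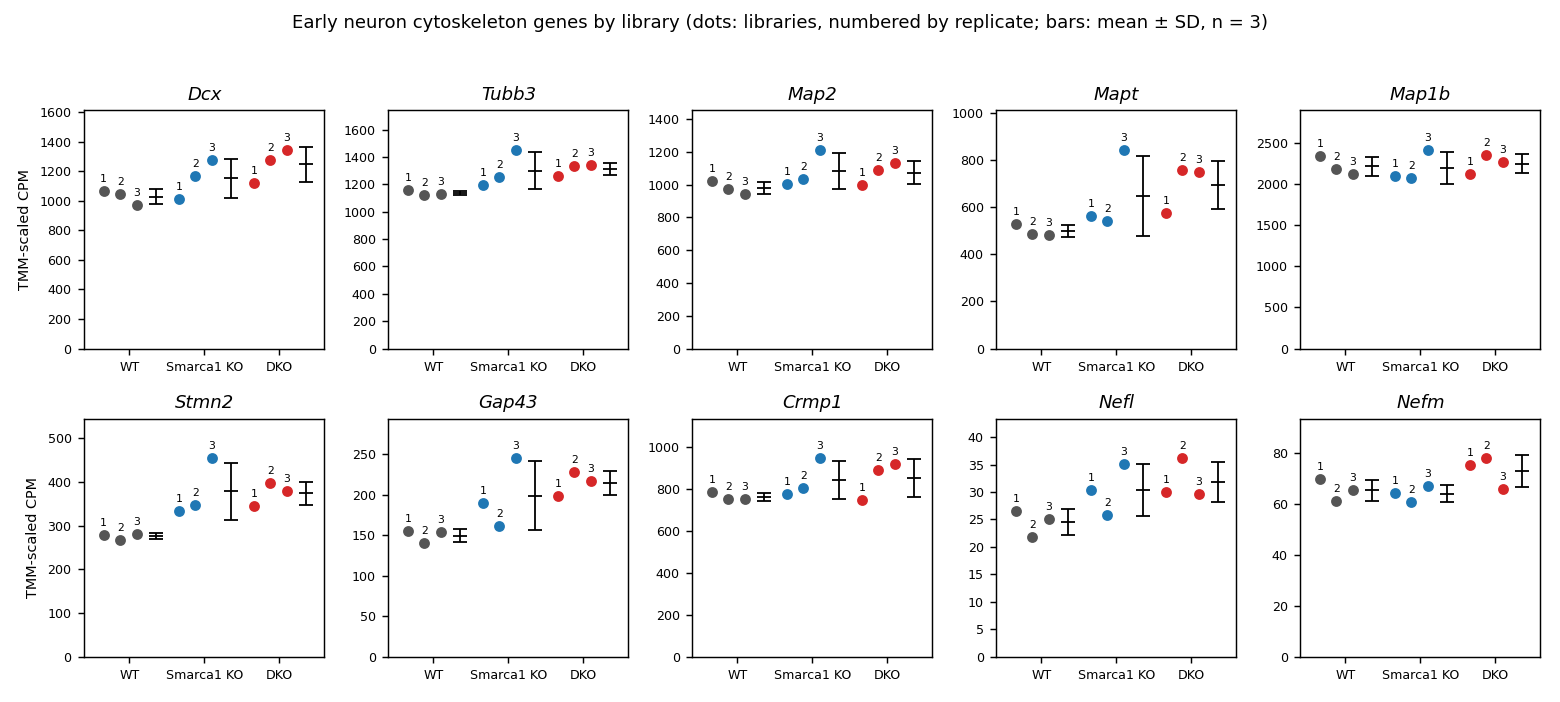
TMM-scaled CPM of each of the 10 genes (y axis, from 0) in the WT, Smarca1 KO and DKO libraries (x axis); dots are libraries numbered by replicate and bars are the mean ± SD of 3 libraries. Gap43 lies between 140.2 and 155 CPM in the WT and between 199 and 229 CPM in the DKO, Map1b overlaps between all groups, and replicate 3 is the highest Smarca1 KO library for every gene.

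Stmn2, at chr3:8509360-8561606 on the plus strand (GRCm38), encodes a stathmin that binds tubulin dimers and is enriched in growth cones. It was 345, 397 and 380.4 CPM in DKO replicates 1 to 3, 335, 347 and 454 CPM in the Smarca1 KO, and 279.6, 268 and 282 CPM in the WT. All 6 mutant libraries were above all 3 WT libraries. It rose by 0.44 on the log2 scale in the DKO against the WT (SE 0.10, adjusted p = 0.0279), a fold of 1.35.

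Gap43, at chr16:42248442-42340651 on the minus strand, encodes a membrane protein of growing axon tips. It was 199, 229 and 217 CPM in the DKO, 190.1, 161 and 245 CPM in the Smarca1 KO and 155, 140.2 and 154 CPM in the WT. Again no mutant library was within the WT range. It rose by 0.52 in the DKO against the WT (SE 0.13, adjusted p = 0.0300), the largest log2 fold change among the 10 genes and a fold of 1.44. Both calls were lost when DKO replicate 2, DKO replicate 3 or any one of the 3 WT libraries was left out, with adjusted p between 0.0896 and 0.107 for Stmn2 and between 0.0895 and 0.117 for Gap43. They were also lost with a covariate of Y-linked expression, which follows the groups (adjusted p = 0.916 and 0.893, log2 fold changes of 0.11 and 0.17). Calls over all genes fell to 6 in that fit, against 1887 without the covariate. Y-linked reads summed to similar levels throughout: 238 to 247 CPM in the DKO, 253 to 267 CPM in the Smarca1 KO and 258 to 266 CPM in the WT. With levels this close, the fit is no test of a difference in sex between libraries.

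Mapt, at chr11:104231390-104332090 on the plus strand, encodes tau, the microtubule-binding protein of axons. It was 578, 758 and 748 CPM in the DKO, 561, 540.4 and 843 CPM in the Smarca1 KO and 529.9, 486 and 484 CPM in the WT. The groups of mutants did not overlap the WT, yet each held both low and high libraries. The log2 fold change of 0.47 in the DKO against the WT had a wide 95% interval, 0.11 to 0.84, and did not pass (adjusted p = 0.0832).

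Dcx, at chrX:143855842-143933311 on the minus strand, encodes doublecortin, the microtubule-bundling protein of migrating neurons. It was 1117, 1277 and 1343 CPM in the DKO, 1012, 1166 and 1275 CPM in the Smarca1 KO and 1069, 1042 and 973 CPM in the WT. The DKO libraries were all above the WT libraries, while Smarca1 KO replicate 1 was inside the WT range. The difference between DKO and WT was 0.28 on the log2 scale (SE 0.09, adjusted p = 0.0708).

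Tubb3, at chr8:123411424-123422015 on the plus strand, had the narrowest WT spread of the 10, a coefficient of variation of 1.59%. It was 1258, 1337 and 1339 CPM in the DKO, 1193, 1256 and 1450.3 CPM in the Smarca1 KO and 1157, 1124 and 1128 CPM in the WT. All mutant libraries were above the WT, by small margins: the log2 fold change of DKO against WT was 0.21 (SE 0.07, adjusted p = 0.0674). Of its 31-base words, 3.21% were shared with other genes, mostly other beta-tubulins, the highest share among the 10 genes.

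Map2 and Map1b, the other microtubule-binding members, differed less. Map2, at chr1:66175273-66442583 on the plus strand and known for marking dendrites, was 997, 1090.0 and 1129.9 CPM in the DKO and 1019, 973 and 943 CPM in the WT, and these groups overlapped (log2 fold change 0.13, adjusted p = 0.253). Map1b, at chr13:99421446-99516540 on the minus strand, an early microtubule protein of growing axons, was the member with most reads. It was 2129.6, 2353 and 2277 CPM in the DKO, 2098, 2083 and 2417 CPM in the Smarca1 KO and 2346, 2181 and 2130.2 CPM in the WT. Its highest library was only 1.16 times its lowest, the smallest ratio among the 10 genes, and its log2 fold change of DKO against WT was 0.02 with a 95% interval of -0.13 to 0.17.

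The neurofilament genes overlap on chromosome 14, Nefl at chr14:68083863-68089095 on the plus strand and Nefm at chr14:68082590-68124846 on the minus strand. The annotated span of Nefl lies within that of Nefm. The strand setting of the quantification is unknown here, so reads from the overlap may not be assigned to one gene alone. Nefl, the light chain, was 29.9, 36.1 and 29.7 CPM in the DKO, 30.3, 25.7 and 35.1 CPM in the Smarca1 KO and 26.5, 21.8 and 25.2 CPM in the WT. The DKO libraries were above the WT without passing the test (log2 fold change 0.38, SE 0.12, adjusted p = 0.0731). Nefm, the medium chain, was 75.4, 78.0 and 65.9 CPM in the DKO, 64.4, 60.9 and 67.3 CPM in the Smarca1 KO and 69.7, 61.3 and 65.5 CPM in the WT. It overlapped between all groups, and the log2 fold change of DKO against WT was 0.16 (adjusted p = 0.180).

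Crmp1, at chr5:37241940-37292133 on the plus strand, encodes a cytosolic mediator of semaphorin signals in growth cones. It was 748, 890.2 and 918 CPM in the DKO, 777, 802 and 944 CPM in the Smarca1 KO and 783, 750.1 and 751 CPM in the WT. DKO replicate 1 was the lowest of the 9 libraries, so the groups overlapped, and the log2 fold change of DKO against WT was 0.16 (adjusted p = 0.24).

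The Smarca1 KO and the WT differ in their labelled Smarca1 genotype. Smarca5 was also lower in the Smarca1 KO, with no overlap between the groups but without being called (log2 fold change -0.19, edgeR adjusted p = 0.159). In the Smarca1 KO against the WT, 0 of the 10 genes were called, where 0.336% of all genes were. At an unadjusted p under 0.05 there were 5 (18.9% of all genes). DESeq2 called 2 of the 10, Stmn2 and Gap43, and it called more genes in general: 701 of 13905, where edgeR called 53 of 15773. The estimates for Stmn2 (0.45, SE 0.10, adjusted p = 0.105) and Gap43 (0.41, SE 0.13, adjusted p = 0.161) were close in size to those of the DKO, and both comparisons use the same 3 WT libraries. Tubb3 at 0.19 (adjusted p = 0.182) and Mapt at 0.37 (adjusted p = 0.255) also had no Smarca1 KO library within the WT range, 4 of 10 genes in all beside 26.1% of all genes. Nefm and Map1b had estimates of -0.03 and -0.01. The median over the 10 genes was 0.18, with 8 positive, beside 0.01 over all genes, of which 52.8% were positive.

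The DKO and the Smarca1 KO, which differ by the Cre allele and the low Smarca5, were compared directly. None of the 10 genes was called by edgeR (0 of 10 beside 4.39% of all genes) or by DESeq2 (0 of 10 beside 1135 of 16101 genes). For 1 gene, Nefm, the unadjusted p was under 0.05, beside 18.4% of all genes. Its log2 fold change was 0.19 with an adjusted p of 0.211. Every member overlapped between these groups, where 20.5% of all genes did not. The other estimates lay between -0.02 for Stmn2 (95% interval -0.25 to 0.22) and 0.11 for Dcx (95% interval -0.09 to 0.31), and the widest interval, that of Mapt, ran from -0.26 to 0.46. A difference between the mutants as large as the one seen for Stmn2 between DKO and WT was therefore outside the interval of Stmn2 but inside that of Mapt. The median over the 10 genes was 0.05, beside 0.00 over all genes.

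**Figure D2:**
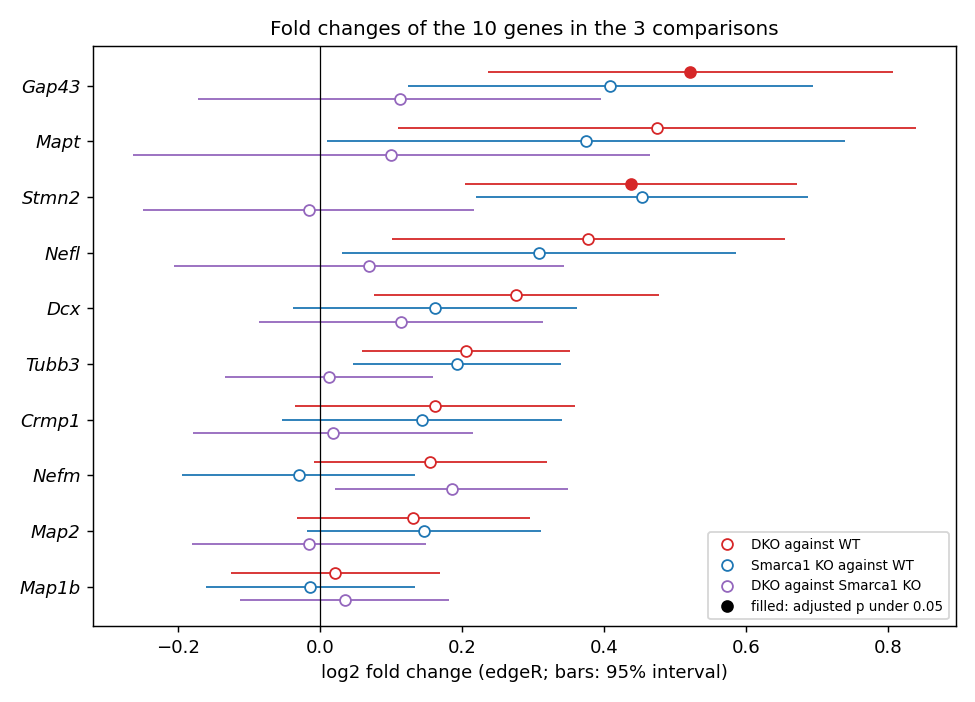
Log2 fold change (x axis) of each of the 10 genes (y axis, ordered by the DKO against WT value) in the 3 comparisons, with 95% intervals from edgeR and filled points where the adjusted p is under 0.05. Only Gap43 (0.52) and Stmn2 (0.44) in DKO against WT are filled; DKO against WT shares its WT libraries with Smarca1 KO against WT and its DKO libraries with DKO against Smarca1 KO.

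Much of the spread among the mutants lay in single libraries. Smarca1 KO replicate 3 was the highest of all 9 libraries for 7 of the 10 genes, and DKO replicate 2 (Nefl and Nefm) and DKO replicate 3 (Dcx) for the others. The mean of the 10 genes' log2 CPM, each centred on its own mean over the 9 libraries, was 0.26 in that Smarca1 KO library and -0.05 and -0.07 in Smarca1 KO replicates 1 and 2. In DKO replicates 1 to 3 it was 0.00, 0.20 and 0.14, and in the WT -0.10, -0.21 and -0.18. Within the Smarca1 KO the coefficient of variation reached 26.1% for Mapt, 21.4% for Gap43 and 17.4% for Stmn2, while in the WT it was between 1.59% (Tubb3) and 9.77% (Nefl). Without Smarca1 KO replicate 3 the comparison of DKO with WT called 6 genes (Dcx, Tubb3, Stmn2, Mapt, Nefl and Gap43), and without any one WT library it called 0. Calls over all genes moved likewise. They were 3178 of 16049 without Smarca1 KO replicate 3 and 450 to 541 without any one WT library, against 1887 of 15773 with all 9 libraries.

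Markers of other cells moved with these libraries. The sum of 11 meningeal markers was 742 CPM in DKO replicate 1 and 683 CPM in Smarca1 KO replicate 1, between 312 and 345 CPM in the other 4 mutant libraries and between 512 and 605 CPM in the WT; no marker was at 0. Of the 4 mutant libraries with few meningeal reads, DKO replicates 2 and 3 and Smarca1 KO replicate 3 had the highest cytoskeletal means, while Smarca1 KO replicate 2 had a low one. Leaving out DKO replicate 1 and Smarca1 KO replicate 1 gave 6 called genes in DKO against WT (Dcx, Tubb3, Stmn2, Mapt, Gap43 and Crmp1) and 2 in Smarca1 KO against WT (Dcx and Stmn2). Calls over all genes rose in the same fits. They were 2797 of 15852 in DKO against WT and 607 of 15852 in Smarca1 KO against WT, where all 9 libraries gave 1887 and 53 of 15773. Markers of radial glia, the dividing progenitors, summed to 3888 to 4288 CPM in the DKO, 3703 to 4321 CPM in the Smarca1 KO and 4709 to 4752 CPM in the WT over 19 genes, none at 0, and the lowest sum was in Smarca1 KO replicate 3. Of these 19 genes 8 fell and 3 rose in DKO against WT, with a median log2 fold change of -0.24. A list of 9 blood markers, none at 0, summed to 881 to 1456 CPM in the DKO, 1063 to 1621 CPM in the Smarca1 KO and 1394 to 1870 CPM in the WT. The part of these markers in the cytoskeletal differences was not tested.

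**Figure D3:**
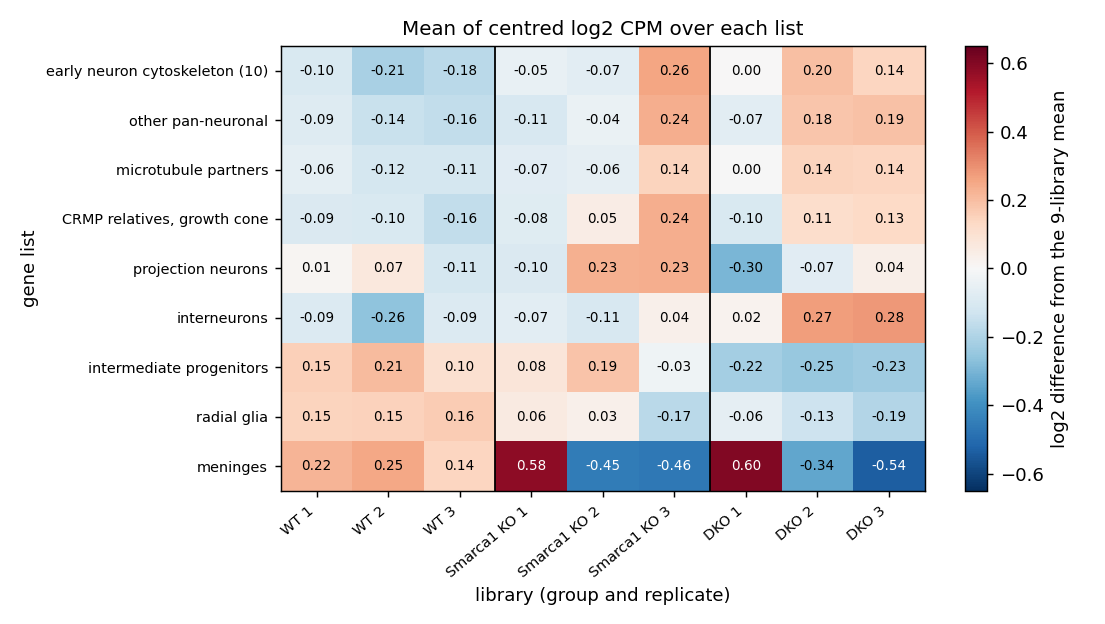
Mean over each gene list of log2 CPM centred per gene on the 9 libraries (colour and printed value; rows are lists, columns are libraries by group and replicate). The 10 cytoskeletal genes range from -0.21 in WT replicate 2 to 0.26 in Smarca1 KO replicate 3, other pan-neuronal genes follow a like order, and meningeal markers are highest in DKO replicate 1 (0.60) and Smarca1 KO replicate 1 (0.58).

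Crmp1 and Map2 were the 2 members with more than 1 transcript with at least 10% of the gene's reads in any group. Over the 69 annotated transcripts of the 10 genes, 50 passed the filter and 0 were called in any comparison, where the rates over 50753 transcripts were 0.132% for DKO against Smarca1 KO, 0.327% for DKO against WT and 0.0296% for Smarca1 KO against WT. In the other 8 genes a single transcript held nearly all reads, among them a Mapt transcript that codes for a tau of 372 residues and a Dcx transcript of 366 residues.

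The main Crmp1 transcripts begin at 2 starts 3684 bases apart and share 12 of their 14 exons. The upstream start gives Crmp1-202, of 686 residues with 381 coding bases in its first exon, and the downstream start gives Crmp1-201, of 572 residues with 39 coding bases there. The 250 bases before each start are shown because the transcripts that begin there are the 2 main forms of Crmp1, whose shares are compared next. They are from RefSeq on GRCm38.p6, plus strand, chr5:37241808-37242057 for the upstream start and chr5:37245514-37245763 for the downstream start, with matches to the GC box GGGCGG on either strand in capitals (overlapping matches counted).

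Crmp1 upstream start: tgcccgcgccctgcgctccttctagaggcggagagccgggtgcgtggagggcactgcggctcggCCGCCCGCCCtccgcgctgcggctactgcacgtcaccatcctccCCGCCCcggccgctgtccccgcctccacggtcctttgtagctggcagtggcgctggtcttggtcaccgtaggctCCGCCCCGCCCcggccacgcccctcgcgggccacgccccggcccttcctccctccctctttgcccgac
Crmp1 downstream start: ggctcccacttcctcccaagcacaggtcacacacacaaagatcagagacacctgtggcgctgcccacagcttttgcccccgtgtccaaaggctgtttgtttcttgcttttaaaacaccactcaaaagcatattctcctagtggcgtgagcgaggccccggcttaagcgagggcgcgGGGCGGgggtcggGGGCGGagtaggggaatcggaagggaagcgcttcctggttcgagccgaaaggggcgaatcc

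The upstream window had 75.6% G and C with 5 GC boxes, and the downstream window 59.6% with 2; a GC box was found in 32.7% of 32851 promoter windows of the same length. The RefSeq start 37242058 lies just before the first annotated base of Crmp1-202 in the quantification's annotation, 37242080. A match is a description of the letters and not evidence of a bound factor.

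The share of Crmp1 reads assigned to Crmp1-202 was 22.0, 19.7 and 21.8% in DKO replicates 1 to 3, 18.9, 17.8 and 18.5% in the Smarca1 KO and 17.6, 18.9 and 18.6% in the WT. Every DKO library was above every other library. How often the shares of other transcripts separate in this way was not counted. For the levels of genes, groups did not overlap for 20.5% of all genes in DKO against Smarca1 KO and 41.3% in DKO against WT. The mean of 21.1 ± 1.25% in the DKO was 2.75 percentage points above the Smarca1 KO (18.4 ± 0.576%) and 2.76 points above the WT (18.4 ± 0.724%), each with a two-sided exact permutation p of 0.1, the smallest that 3 against 3 libraries allow, and an adjusted p of 0.3 over 6 such tests. On the deposited TPM the shares were 19.2 ± 1.23% in the DKO, 16.8 ± 0.475% in the Smarca1 KO and 16.6 ± 0.684% in the WT, again with no overlap. Crmp1-202 itself was 165, 176 and 201 CPM in the DKO, 148, 142 and 175 CPM in the Smarca1 KO and 137, 142 and 139 CPM in the WT, with a log2 fold change of 0.37 in DKO against WT (SE 0.09, edgeR adjusted p = 0.168 over all transcripts). Crmp1-201 had 0.13 in the same comparison (adjusted p = 0.685). The share rests on how Salmon divided reads between transcripts, and the error of that division is not in these tests.

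Map2 is spliced into a short form of 467 residues (the annotated transcript Map2-201), the form typical of young neurons, and a long form of 1828 residues. The long form includes 3 exons, 4083 bases between chr1:66412407-66416866, that code for 1361 residues and are skipped in the short form. The 30 bases across the splice junction after exon 6 are shown because they tell the forms apart: the first 15 bases, in lower case, end exon 6 in both, and the capitals begin the next exon used.

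Map2 short form (Map2-201): ccacagtggaggaagCAGCAAGTGGTGACT
Map2 long form: ccacagtggaggaagATTTACTTACAGCCT

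The long form took 16.0, 14.4 and 15.2% of Map2 reads in the DKO, 14.2, 12.7 and 15.7% in the Smarca1 KO and 15.6, 14.9 and 14.1% in the WT. All 3 groups overlapped, with exact permutation p between 0.4 and 0.7 for the 3 comparisons. On the deposited TPM, which corrects for length, the long form had lower shares. They were 10.5 ± 0.686% in the DKO, 10.2 ± 1.06% in the Smarca1 KO and 10.4 ± 0.753% in the WT, again overlapping. Map2-201 alone took between 67.6 and 73.0% of the reads in the 9 libraries, and other annotated transcripts that code for 467 residues took smaller shares. By this measure most Map2 reads were assigned to a single short-form transcript in each group.

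**Figure D4:**
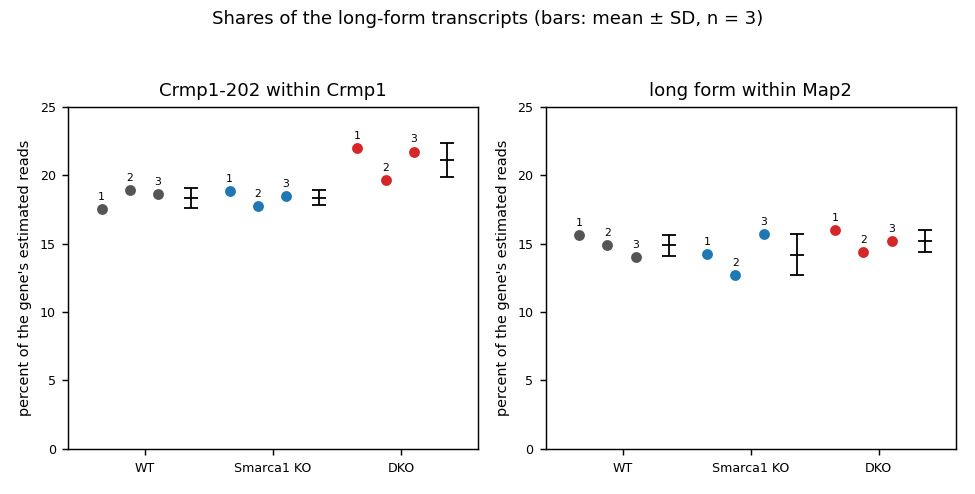
Share of the gene's estimated reads assigned to Crmp1-202 and to the Map2 long form (y axis, percent, from 0) in each group (x axis); dots are libraries numbered by replicate, bars the mean ± SD of 3 libraries. The DKO libraries hold 19.7 to 22.0% for Crmp1-202, above all other libraries, and the Map2 long form overlaps between the groups. The rate of such a separation over other transcripts was not counted.

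RefSeq promoter windows were matched for 5 of the 10 genes (Dcx, Tubb3, Map2, Map1b and Crmp1), 7 windows of 250 bases in all. A GC box was present in 5 of the 7 windows, and the E-box CANNTG, searched on both strands like every motif here, in 2 of 7 beside 66.2% of all windows. CCAAT was found in 2 of 7 (33.9% of all windows), and TATAAA in 3 of 7 (12.4% of all windows), 2 of these being overlapping windows of Dcx. The pair of genes that rose, Stmn2 and Gap43, were not among those matched.

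Other genes of the microtubule system were read from lists. Of 12 tubulins tested 3 rose and 1 fell in DKO against WT (median 0.07): Tuba1a, the main alpha-tubulin of newborn neurons, rose by 0.21 (SE 0.05, adjusted p = 0.0300), Tubb4a rose by 0.43 (adjusted p = 0.0317), and Tuba4a fell by 1.05 on the log2 scale (SE 0.13, adjusted p = 0.00221). Of 27 other proteins that bind microtubules or tubulin 5 rose and 0 fell (median 0.14), among them Map7, a recruiter of kinesin-1, at 1.36 (SE 0.17, adjusted p = 0.00264), Stmn1, the stathmin of progenitors and neurons, at 0.27 (adjusted p = 0.0203) and the tubulin-folding cofactor Tbcb at 0.25 (adjusted p = 0.0136). Map7 and Tuba4a were also called against the Smarca1 KO, Map7 at 1.26 (adjusted p = 0.00491) and Tuba4a at -0.85 (adjusted p = 0.00679). Both had low levels: means were 8.58 CPM in the DKO and 3.34 CPM in the WT for Map7, and 6.22 and 12.95 CPM for Tuba4a. Tuba1a had 5409 and 4679 CPM. Of 19 motor genes 1 rose, the dynein regulator Ndel1 (0.19, adjusted p = 0.0365), with a median of 0.09.

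Among 5 other intermediate filament genes Ina, the alpha-internexin that assembles with neurofilaments, rose by 0.44 in DKO against WT (adjusted p = 0.0287), and Prph, the peripherin of peripheral neurons, fell by 1.04 on the log2 scale (adjusted p = 0.0386). Prph had few reads, with means of 1.28 CPM in the DKO and 2.61 CPM in the WT, where Ina had 470 and 347 CPM. Prph also stands in the list of 7 peripheral neuron genes tested, where it was the 1 gene called in this comparison. None of 16 CRMP relatives and growth cone genes was called by edgeR, 8 of them at an unadjusted p under 0.05, with a median of 0.13. Their smallest p was that of Cap2, a partner of actin (0.34, adjusted p = 0.0637). Of 19 actin genes of growth cones 2 rose, Tmsb10 (0.33, adjusted p = 0.00634) and Gas7 (0.61, adjusted p = 0.0412), and 1 fell, Coro2b, at -0.18 (adjusted p = 0.0337). Coro2b also fell in Smarca1 KO against WT (-0.33, adjusted p = 0.0206), the single call there in these lists of the cytoskeleton. In DKO against Smarca1 KO 1 actin gene was called, Dbnl, an actin-binding adaptor, which rose by 0.15 (adjusted p = 0.0412).

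Of 24 pan-neuronal genes outside the 10 members, 5 rose and 0 fell in DKO against WT, with a median of 0.26, close to that of the members. They included Uchl1, an abundant neuronal ubiquitin hydrolase (0.32, adjusted p = 0.0136), and Celf4, an RNA-binding protein (0.42, adjusted p = 0.0238). Ina is one of the 5 and is the same gene as the intermediate filament that rose, so these lists are not independent. No gene of this list was called in the other 2 comparisons. Of 12 genes of GABAergic interneurons, cells that enter the cortex from the ventral forebrain, 6 rose and 0 fell (median 0.33), and their sum was 1181 to 1415 CPM in the DKO, 1102 to 1186 CPM in the Smarca1 KO and 1010.4 to 1147 CPM in the WT, with none at 0. Of 14 projection neuron genes 1 rose, Lmo3 (0.55, adjusted p = 0.00983), and 2 fell, the deep layer factor Fezf2 (-0.45, adjusted p = 0.00695) and the vesicular glutamate transporter Slc17a7 (-0.55, adjusted p = 0.0174). The median of the 14 genes was -0.09, while the median of the cytoskeletal genes was positive. In Smarca1 KO against WT both medians were positive, 0.12 for the projection neuron genes and 0.18 for the cytoskeletal genes. The projection neuron genes summed to 2634 to 3282 CPM in the DKO and 3029 to 3438 CPM in the WT. In the Smarca1 KO they summed to 2986 to 3931 CPM, so all groups overlapped. Of 10 genes of Cajal-Retzius cells, early neurons of the cortical surface, 3 rose in DKO against WT, among them Calb2 (1.07, adjusted p = 0.0163) and Ndnf (0.65, adjusted p = 0.0277), and 1 fell, Nhlh2 (-0.25, adjusted p = 0.0217), with a median of 0.40. Their sum was 524 to 561 CPM in the DKO, 404 to 547 CPM in the Smarca1 KO and 443 to 470.4 CPM in the WT, with none at 0. Of 10 microglia genes 3 rose, Cx3cr1 (0.77, adjusted p = 0.00339), C1qa (1.15, adjusted p = 0.00636) and Trem2 (0.92, adjusted p = 0.0194), with a median of 0.52 and sums of 72.9 to 92.4 CPM in the DKO, 62.2 to 68.2 CPM in the Smarca1 KO and 56.6 to 60.6 CPM in the WT, none at 0. The part of the interneuron, Cajal-Retzius and microglia genes in the cytoskeletal difference was not tested. Of 9 genes of the REST repressor, which silences neuronal genes outside neurons, and its partners, 1 fell, the demethylase Kdm1a (-0.18, adjusted p = 0.0237).

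Outside these lists, the genes whose log2 CPM followed the mean of the 10 members most closely over the 9 libraries, out of 10798 genes of sufficient level, were Caly, Wsb2, Tspyl4, Reep1 and Cspg5, with Pearson r between 0.988 and 0.993. These correlations share the libraries and their composition and are given as a description. Cspg5, a neural chondroitin sulphate proteoglycan, was called in DKO against WT (0.49, adjusted p = 0.0374), and the other 4 were not.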

How the data were processed

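Stranded mRNA libraries from E13.5 cortex (3 groups of 3) were quantified by the authors with Salmon 1.4.0 against mm10, per the submitters' processing notes. Those notes list DESeq2 too, with no role. The deposited files give estimated counts and TPM for 116546 transcripts; bias options and strand setting: not given in the sources used here. Estimated counts were summed to 35498 genes by GENCODE M21 transcripts (115977 matched; the 569 others held 0.104 to 0.116% of reads and were left out) and rounded. Deposited TPM was used for levels and for transcript shares.

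Groups were taken from the labelled genotypes. All 9 libraries entered 1 fit with a mean per group in edgeR 4.0.16 (R 4.3.3): TMM factors (0.991 to 1.02), filterByExpr (15773 genes), quasi-likelihood F tests and Benjamini-Hochberg adjustment over all genes, called at adjusted p under 0.05. Single transcripts were fitted likewise (50753 transcripts). The common biological coefficient of variation was 10.2%. CPM in the text is on TMM-scaled libraries. The gene fit was tested on simulated data with 200 genes changed in the DKO. Of genes changed 1.5-fold it recovered 60% in DKO against Smarca1 KO and 59% in DKO against WT. Of genes changed 2-fold it recovered 74% and 78%. The largest fold among the members was 1.44, and changes that small were not simulated. Transcript shares were compared by exact permutation over libraries.

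Members and lists were chosen with earlier results of these data known. Beyond the 10 members, the rule allowed naming up to 3 called genes with the smallest p from each list and comparison, or the gene with the smallest p where none was called. It also allowed transcripts with at least 10% of a gene's reads and the 5 genes most like the members. Not every gene that the rule allowed is named in the text. Alternatives were DESeq2 1.42.0 size factors and tests, no filter, effective-length offsets, a replicate block, a Y-linked covariate, the 2 groups alone, and leaving out libraries. Of the remaining lists, counts called in DKO against WT were 5 fallen of 12 intermediate progenitor genes, 1 fallen of 9 blood genes, and 0 of 11 meningeal, 0 of 10 endothelial and 0 of 7 oligodendrocyte lineage genes. In DKO against Smarca1 KO 3 intermediate progenitor and 2 radial glia genes fell, and 2 microglia genes and 1 peripheral neuron gene rose. Of the projection neuron genes 1 rose and 1 fell. No gene of the other cell type lists was called there. In Smarca1 KO against WT 1 radial glia gene fell.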

Additional observations from a re-analysis of the deposited data

How the results depend on the processing

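Which members were called in DKO against WT depended on the processing. Against 2 in the reported fit, the number was 0 with the Y-linked covariate (which follows the groups, R2 = 0.771), 6 with the 2 groups alone, 5 with DESeq2, 6 without the 2 libraries highest in meningeal markers, and 0 to 6 over the fits leaving out 1 library. It stayed 2, the same genes, with DESeq2 size factors, no filter, effective-length offsets and the replicate block. In Smarca1 KO against WT it was 2 instead of 0 with DESeq2 and without the 2 meningeal libraries. All genes called in those 2 fits were 701 of 13905 and 607 of 15852, against 53 of 15773 in the reported fit. The number of members called in DKO against Smarca1 KO was 0 under all 17 alternatives. Member transcripts called in DKO against WT were 0 to 2 over the fits leaving out 1 library, with 2 without Smarca1 KO replicate 3. The rate over all transcripts in these fits is not given here, so the 2 cannot be read as a result about the members. Calls over all genes also rose without that library, to 3178 of 16049 against 1887 of 15773.

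Signs changed for these estimates. In DKO against Smarca1 KO the covariate gave log2 fold changes of -0.074 for Dcx, -0.18 for Tubb3, -0.29 for Mapt, -0.096 for Nefl, -0.20 for Gap43, -0.094 for Map1b and -0.18 for Crmp1. Tubb3 was -0.015 without the 2 meningeal libraries, and Map2 was 0.025 with effective-length offsets. Leaving out 1 library gave -0.046 to 0.097 for Tubb3, -0.097 to 0.13 for Stmn2, -0.066 to 0.071 for Map2, -0.013 to 0.33 for Mapt, -0.035 to 0.18 for Nefl, -0.016 to 0.29 for Gap43, -0.0017 to 0.11 for Map1b and -0.039 to 0.11 for Crmp1. In DKO against WT the covariate gave -0.0071 for Tubb3, -0.081 for Map2, -0.12 for Map1b and -0.060 for Crmp1, and leaving out 1 library gave -0.014 to 0.061 for Map1b. In Smarca1 KO against WT Map1b was 0.019 without the meningeal libraries, and leaving out 1 library gave -0.087 to 0.027 for Map1b and -0.077 to 0.016 for Nefm. The covariate follows the groups while Y-linked levels were similar in all libraries, so its sign changes are no test of sex. The cause of the sign changes was not tested.

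Replicate numbers did not pair the libraries throughout: 2 of 9 same-numbered pairs had a correlation of deviations over 0.1 (range -0.06 to 0.35), and 3 of 9 libraries correlated best with their own number. The value of 0.35 was that of Smarca1 KO replicate 1 with DKO replicate 1, the 2 libraries highest in meningeal markers. With 3 libraries per group this check cannot exclude that some same-numbered libraries shared an origin. With the replicate block, members called were 0 in DKO against Smarca1 KO, 2 in DKO against WT and 0 in Smarca1 KO against WT, and all genes called were 529, 1745 and 29 against 692, 1887 and 53 without it. All genes called in DKO against WT were 6 with the covariate, 3443 with the 2 groups alone and 450 to 3178 over the fits leaving out 1 library. They were 2828 with DESeq2 and 2797 without the 2 libraries highest in meningeal markers. The least covered member, Nefl, had at least 630 reads in a library, and the 3 libraries per group limit the precision.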
